A study of Mus musculus with 16 samples.

Results

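The proteasome subunit genes were the genes of the deposited tables whose symbols begin with Psma, Psmb, Psmc or Psmd followed by a number. Pseudogenes with -ps names and the inducible subunits Psmb8 and Psmb9 were left out by the rule. The rule found 38 of the 30389 genes, of which 17 were core genes (Psma1 to Psma8, Psmb1 to Psmb7, Psmb10 and Psmb11) and 21 were regulatory genes (Psmc1 to Psmc6, Psmc3ip and Psmd1 to Psmd14). Psmc3ip matched the pattern by name but encodes a recombination factor and not a subunit. Psma8 and Psmb11 are the testis and thymus forms of core subunits, and Psmd5, Psmd9 and Psmd10 are chaperones that help to build the base of the regulatory particle.

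The proteasome degrades proteins that carry ubiquitin chains. Its barrel-shaped core particle has outer rings of alpha subunits (Psma) that gate the entrance and inner rings of beta subunits (Psmb), of which Psmb5, Psmb6 and Psmb7 hold the active sites, and interferon can replace these with Psmb8, Psmb9 and Psmb10. The regulatory particle unfolds substrates with the ATPases Psmc1 to Psmc6 and recognises and strips ubiquitin with the Psmd subunits, and tau is among the proteins that the proteasome is known to degrade.

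Cortical cells of mice aged 17 months were measured by Drop-seq, a droplet method that counts the 3′ ends of mRNA molecules as unique molecular identifiers (UMIs). THY-Tau22 mice carry human 4-repeat tau with the mutations G272V and P301S under the Thy1.2 promoter, which is active in neurons, and were heterozygous for it, from crosses with C57Bl6/J mice. WT littermates carry no transgene. The groups held 4 WT male, 4 THY-Tau22 male, 3 WT female and 5 THY-Tau22 female libraries. The titles give an animal number for each library, and 1 number stands on both a WT male and a THY-Tau22 female library.

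The tables labelled WT male replicate 3 and, in the transgenic males, replicate 4 had 2952 of 3000 barcodes in common, whereas no other of the 120 pairs of tables had more than 12. They were treated as 1 library of unknown genotype and entered no genotype comparison, which left 3 libraries in each male group. Barcodes with 200 to 7000 detected genes were kept (28530 of 48000), with 755945 to 2089367 UMIs per library, and clusters were named from marker genes as microglia-like, astrocyte-like, oligodendrocyte-like, endothelial-like, neuron-like and OPC-like (oligodendrocyte precursor) cells. The classes were rebuilt here, and the proteasome genes took no part in the clustering. In THY-Tau22 male replicate 3, 26.9% of the cells fell into unnamed clusters, against 1.89% to 5.98% in the other libraries of the comparisons.

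The promoters of the members were searched on both strands for TGACNNNGC, the core of the element bound by Nfe2l1 and Nfe2l2, and for CCAAT, the box bound by NF-Y. The RefSeq windows (GRCm38.p6) ran from 250 bases before to 50 bases after the start, and 31 of the 38 members matched. TGACNNNGC occurred in 5 of these 31 genes (16.1%), against 14.0% of 27025 genes, and CCAAT occurred in 13 (41.9%), against 41.1%, both shares close to those of all promoters. The 3 TGACNNNGC matches closest to a start are shown because they lie in 2 catalytic subunits and 1 base chaperone, with the motif in capitals and the strand of the gene from 5′ to 3′.
Psmb5 (chr14:54618023-54618052, minus strand, 47 bases before the start): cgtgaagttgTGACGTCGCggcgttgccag
Psmb6 (chr11:70525338-70525367, plus strand, 9 bases before the start): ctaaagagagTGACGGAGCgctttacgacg
Psmd9 (chr5:123228149-123228178, plus strand, 31 bases before the start): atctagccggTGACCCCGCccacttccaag
A match describes letters in a window and not a bound site. The TGACNNNGC matches of Psmd12 and Psmc6 lay 247 and 227 bases before the start.

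Across the 14 libraries the members differed widely in level. Levels are given in CPM, the UMIs of a gene per 1000000 UMIs of the library after scaling by the trimmed mean of M values (TMM), and are not divided by transcript length because each molecule was counted at its 3′ end. The core members with the highest levels were Psma7 (358 ± 67.1, SD, n = 14), Psma4 (152 ± 32.6) and Psma2 (150 ± 39.6), all alpha-ring subunits. Psma4, Psma2 and the beta-ring subunit Psmb1 (149.5 ± 42.8) differed by less than their spread. The highest regulatory members were the ATPases Psmc1 (242 ± 41.0) and Psmc3 (195 ± 30.2) and the lid subunit Psmd7 (150 ± 24.7). Among the active-site subunits Psmb6 was at 104 ± 28.6, Psmb5 at 45.5 ± 14.3 and Psmb7 at 34.8 ± 9.28, and the inducible Psmb10 was at 43.7 ± 9.85, within the spread of Psmb5. Psmb11 was close to absent, with 6 UMIs in the 16 tables together, and Psma8 and Psmc3ip had 164 and 82 UMIs.

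Core members varied more between libraries than regulatory members did. The coefficient of variation over the 14 libraries had a median of 26.6% over the 16 tested core members (14.8% to 45.9%) and of 16.9% over the 20 tested regulatory members (10.6% to 31.1%). Psmb2, a beta-ring subunit without an active site, ranged from 29.5 to 106.5 CPM. Psmd11, a lid subunit, ranged from 68.6 to 101.5. Members with few UMIs vary more through counting alone.

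The summed core level separated the male groups. It was 1254, 1364 and 1165 CPM in WT male replicates 1, 2 and 4 and 1789, 1627 and 1578 in THY-Tau22 male replicates 1, 2 and 3. All 3 THY-Tau22 males therefore lay above all 3 WT males (1665 ± 111 against 1261 ± 99.7, SD, n = 3 each). The sum was 1833, 1877 and 1103 in the WT females and 1349, 1403, 1584, 2033 and 1237 in the THY-Tau22 females. The female groups overlapped (1604 ± 435, n = 3, against 1521 ± 312, n = 5), and WT female replicate 3 was the lowest library of all. WT female replicate 3 and THY-Tau22 female replicate 5, the lowest of each female group, are the only libraries whose titles carry the prefix MB22, the others carrying MB21, and the labels do not say what it stands for. Among the MB21 females the sum was 1833 and 1877 in WT and 1349 to 2033 in THY-Tau22.

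The summed regulatory level differed little between groups. It was 1733 ± 19.4 in WT males, 1726 ± 168 in THY-Tau22 males, 1737 ± 145 in WT females and 1811 ± 173 in THY-Tau22 females, with overlapping ranges. The shared library stood at 1385 and 1359 for the core and at 1613 and 1610 for the regulatory members in its tables. In sums over all cells, a different mix of cells and a change within cells cannot be told apart, nor can fewer cells of a type and less RNA per cell.

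**Figure D1:**
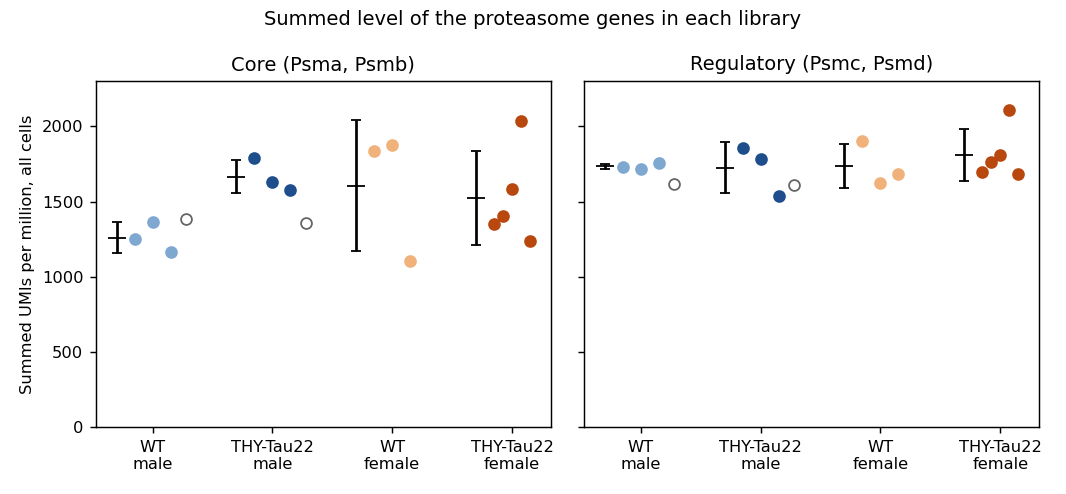
Summed CPM of the core (left) and regulatory (right) genes in all cells, by group. Filled points are libraries, open points are the 2 tables of the shared library, and black marks show the mean and SD without it. The core sum of the 3 THY-Tau22 males (1578 to 1789) lies above that of the 3 WT males (1165 to 1364), while the regulatory sums overlap.

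In males the THY-Tau22 against WT comparison asked whether the transgene goes with other proteasome levels, and no member passed the threshold. Counts were tested with edgeR's quasi-likelihood test. Calls needed both an adjusted p (Benjamini-Hochberg) under 0.05 and a log2 fold change of 0.5 or more in either direction. In all cells 0 of the 36 tested members were called (0% of the 11643 genes tested), and the smallest adjusted p of a member was 0.234, for Psmb5. DESeq2 called 0 of the 18 members to which it gave an adjusted p, and 0.129% of all genes. At an unadjusted p under 0.05, 11 members passed by edgeR, against 15.4% of all genes, and 8 by DESeq2, against 14.1%. All 11 were higher in THY-Tau22 (9.04% of all genes passed in that direction).

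The core and regulatory members moved unequally in males. The median log2 fold change was 0.56 over the 16 core members, 14 of which were higher in THY-Tau22 and 8 of which passed the unadjusted p. Of all tested genes with transcripts under 1000 bases 78.4% were higher, and of those of 1000 to 1500 bases 76.8%. Without THY-Tau22 male replicate 3 or without WT male replicate 4, 2 core members passed. The share of all genes that passed in those smaller fits is not given here, so the fall is not a result about the core members. The median was 0.07 over the 20 regulatory members, with 13 higher and 3 past the unadjusted p, and 0.01 over all genes. All THY-Tau22 libraries lay above all WT libraries in 9 core and 2 regulatory members, as they did in 14.8% of all genes. The opposite order was found in 0 members and in 13.0% of all genes.

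The active-site subunits were each at higher values in THY-Tau22 males. Psmb5, which cuts after hydrophobic residues, was at 36.4, 34.4 and 23.1 CPM in the WT males and at 70.5, 44.5 and 61.6 in the THY-Tau22 males. The groups did not overlap, and the log2 fold change was 0.88 ± 0.29 (SE, unadjusted p = 0.00635, edgeR adjusted p = 0.234). In females it was at 40.5, 65.8 and 34.7 in WT and at 41.7, 36.6, 46.0, 63.9 and 37.0 in THY-Tau22, where the groups overlapped and the log2 fold change was -0.07 ± 0.26.

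Psmb6, which cuts after acidic residues, was at 85.0, 94.0 and 67.0 in the WT males and at 166, 90.5 and 117 in the THY-Tau22 males. One THY-Tau22 male lay within the WT range, and the log2 fold change was 0.59 ± 0.28 (unadjusted p = 0.0450, edgeR adjusted p = 0.316). In females it was at 132, 133 and 76.0 in WT and at 115, 85.4, 104, 128 and 69.9 in THY-Tau22. The WT females spanned nearly the whole range of the THY-Tau22 females, and the log2 fold change was -0.18 ± 0.25.

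Psmb7, which cuts after basic residues, was at 27.5, 28.8 and 24.4 in the WT males and at 35.7, 49.2 and 45.1 in the THY-Tau22 males. The male groups did not overlap, with a log2 fold change of 0.68 ± 0.28 (unadjusted p = 0.0223, edgeR adjusted p = 0.276). In females it was at 32.9, 54.3 and 28.8 in WT and at 41.0, 30.5, 26.4, 35.1 and 27.1 in THY-Tau22. These overlapped, and the log2 fold change was -0.27 ± 0.25.

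The inducible Psmb10 was at 38.5, 27.9 and 34.1 in the WT males and at 47.0, 35.1 and 57.9 in the THY-Tau22 males. The groups overlapped, and the log2 fold change of 0.47 ± 0.26 did not pass even the unadjusted p (0.0883). In females Psmb10 was at 49.4, 64.8 and 36.0 in WT and at 50.03, 39.0, 42.0, 46.4 and 43.8 in THY-Tau22, with overlapping groups.

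Besides Psmb5, the members of smallest p in males were Psmd8 and Psmb2. Psmd8, a lid subunit, was at 29.1, 34.4 and 31.6 in the WT males and at 54.5, 48.4 and 65.8 in the THY-Tau22 males. The groups did not overlap, and the log2 fold change was 0.84 ± 0.29 (unadjusted p = 0.00862, edgeR adjusted p = 0.248). Psmb2 was at 37.0, 36.3 and 34.1 in the WT males and at 63.0, 72.6 and 87.2 in the THY-Tau22 males, again without overlap, with a log2 fold change of 1.05 ± 0.40 (unadjusted p = 0.0158, edgeR adjusted p = 0.269). With the mitochondrial share of the library as a covariate it was -0.29. When the 2 male groups were fitted alone, 4 members were called (Psmb1, Psmb2, Psmb5 and Psmd8, each higher), beside 6.08% of 10530 genes.

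In females no member passed either threshold. By edgeR 0 of the 36 members were called (0% of all genes) and 0 passed the unadjusted p (1.74% of all genes), and DESeq2 likewise gave 0 and 0. The median log2 fold change was -0.12 over the core members, 3 of 16 of which were higher, and 0.01 over the regulatory members, 10 of 20 of which were higher. Of all tested genes with transcripts under 1000 bases 29.4% were higher in females, and of those of 1000 to 1500 bases 39.4%. Short transcripts in general were thus mostly lower too. All THY-Tau22 libraries lay above all WT libraries in 0 members (0.515% of all genes) and below them in 0 members (0.627%).

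The interaction asked whether the genotype difference itself differed between the sexes, as male minus female. In all cells 0 of 36 members were called by edgeR (0% of all genes), and DESeq2 called 0 of the 2 members to which it gave an adjusted p. At the unadjusted p, 8 members passed by each tool (12.7% of all genes by edgeR), of which 7 were positive by edgeR (8.34% of all genes). The DESeq2 share of all genes is not given here. The median difference of log2 fold changes was 0.67 over the core members and -0.00 over the regulatory members.

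The smallest interaction p belonged to Psmd8, Psmb7 and the base chaperone Psmd9. For Psmd8 the WT females were at 53.2, 63.9 and 30.8 and the THY-Tau22 females at 49.4, 23.2, 39.2, 46.4 and 38.1, so that the females overlapped while the males did not (interaction 1.13 ± 0.39, unadjusted p = 0.00776, edgeR adjusted p = 0.292). For Psmb7 the interaction was 0.96 ± 0.37 (unadjusted p = 0.0176, edgeR adjusted p = 0.319). Psmd9 was at 11.1, 15.8 and 12.2 in WT males, 23.5, 15.6 and 23.8 in THY-Tau22 males, 27.9, 27.6 and 15.1 in WT females and 18.6, 12.2, 17.6, 21.3 and 16.7 in THY-Tau22 females. Both sexes overlapped, and the interaction was 1.11 ± 0.44 (unadjusted p = 0.0187, edgeR adjusted p = 0.321).

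The ATPase Psmc1 was the only member past the unadjusted p with a negative interaction. It was at 266, 248 and 273 in WT males, 256, 197 and 159 in THY-Tau22 males, 198, 183 and 271 in WT females and 279, 277, 242, 287 and 258 in THY-Tau22 females. The groups overlapped in both sexes, and the interaction was -0.67 ± 0.30 (unadjusted p = 0.0349, edgeR adjusted p = 0.358). Without WT female replicate 3, which had the lowest core level, 4 members passed the interaction threshold (Psmb1, Psmb2, Psmd8 and Psmd9), beside 9.56% of 11945 genes. Without both MB22 libraries 3 passed (Psmb1, Psmb2 and Psmd8), beside 6.04% of 11763 genes.

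**Figure D2:**
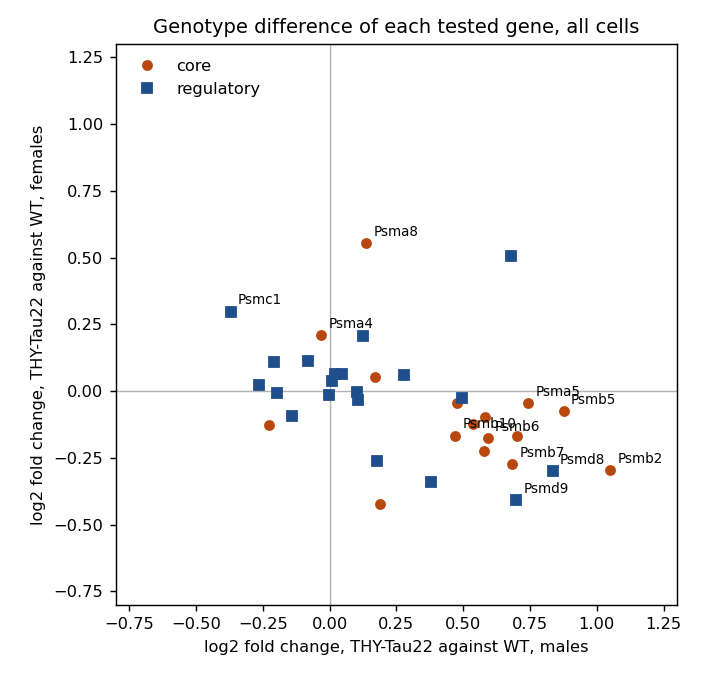
Log2 fold change (THY-Tau22 against WT) of the 36 tested genes in males (x axis) and females (y axis), all cells, with core genes as circles and regulatory genes as squares. Most core genes lie right of 0 in males (14 of 16) and below 0 in females (13 of 16), while the regulatory genes scatter around 0. Of all tested genes under 1000 bases 78.4% were above 0 in males and 29.4% in females. Of those of 1000 to 1500 bases 76.8% and 39.4% were.

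The core level moved together with the make-up of the libraries. The ratio of core to regulatory UMIs, which needs no scaling, ran from 0.655 in WT female replicate 3 to 1.16 in WT female replicate 2, both of the same group. The median share of mitochondrial mRNA per cell was 0.351% to 0.571% in the WT males, 0.889% to 1.33% in the THY-Tau22 males, 0.394% to 1.23% in the WT females and 0.606% to 0.897% in the THY-Tau22 females. In the 7 libraries with the lowest mitochondrial share (0.351% to 0.645%) the ratio was 0.655 to 0.797, and in the 7 with the highest (0.889% to 1.33%) it was 0.874 to 1.16.

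The summed core level was 1103 to 1403 CPM in the first 7 libraries and 1578 to 2033 in the other 7, without overlap, whereas the regulatory level overlapped (1682 to 1760 and 1536 to 2105). The first 7 held all WT males, WT female replicate 3 and THY-Tau22 female replicates 1, 2 and 5, and the other 7 held all THY-Tau22 males, so the male groups could not be compared within either set. Among the females, the core level was 1237 to 1403 in the THY-Tau22 and 1103 in the WT library of the first set, and 1584 and 2033 in the THY-Tau22 and 1833 and 1877 in the WT libraries of the second.

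Transcript length moved in the same way. The share of UMIs in transcripts under 1000 bases (GENCODE, principal transcript) was 7.61% to 9.91% in the first 7 libraries and 10.5% to 15.7% in the other 7, and the share in ribosomal protein genes was 0.879% to 1.31% and 1.42% to 2.33%. The tested core members had a median length of 1174 bases and the regulatory members of 1710, against 2998 over all tested genes. In males the median log2 fold change was 0.46 over the 1139 tested genes under 1000 bases, 0.37 over the 1033 genes of 1000 to 1500 bases and -0.23 over the 3743 genes of 4000 bases or more.

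The 5 core members under 1000 bases had a median of 0.59 and the 7 of 1000 to 1500 bases a median of 0.54, while the 5 regulatory members of that second range had a median of 0.12. In females the genes under 1000 bases had a median of -0.15 and those of 4000 bases or more a median of 0.04. With the mitochondrial share of the library as a covariate, the median core log2 fold change in males was -0.10, with 5 of 16 members higher and 1 past the unadjusted p by edgeR, and that of the interaction was -0.08. The shares of all genes higher or past the unadjusted p in that fit are not given here, so these counts are not a result about the core members. The mitochondrial shares of the male groups did not overlap, so library make-up and genotype cannot be told apart in males.

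**Figure D3:**
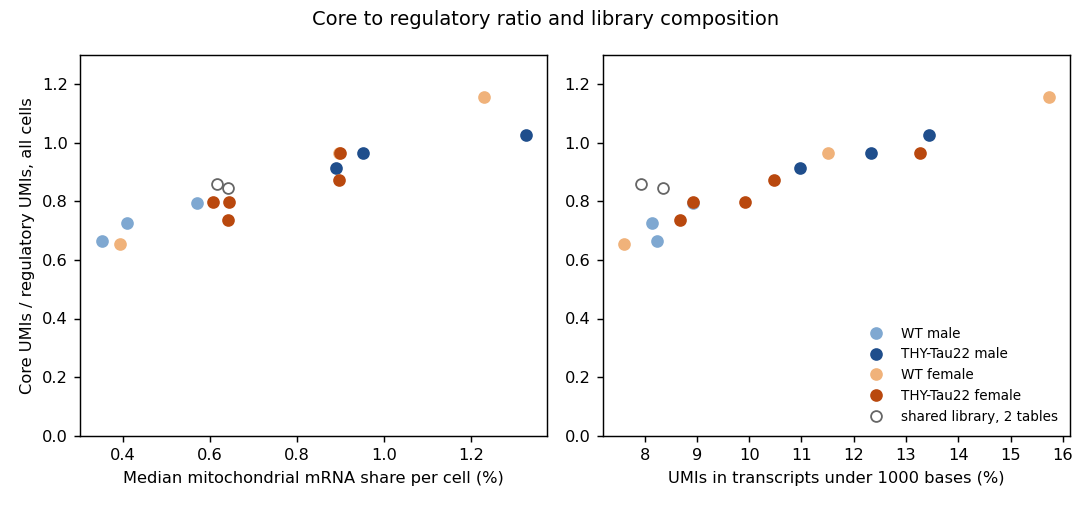
Ratio of core to regulatory UMIs in each library, all cells, against the median mitochondrial mRNA share per cell (left) and the share of UMIs in transcripts under 1000 bases (right). Colours mark the groups and open points the 2 tables of the shared library. The ratio rises with both shares, from 0.655 to 1.16, and the WT males lie to the left of the THY-Tau22 males.

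Within the cell classes the same split of core and regulatory members appeared in males, and no member was called by edgeR in any class, sex or interaction. DESeq2 called 0 of the members to which it gave an adjusted p, for example 7 of 31 in astrocyte-like cells of males. The shares of genes past the unadjusted p given below for each class are those of edgeR. The DESeq2 counts there have no DESeq2 share of all genes beside them and cannot be read as results about the members. In astrocyte-like cells all 15 tested core members were higher in THY-Tau22 males (median log2 fold change 0.76), as were all 13 of the endothelial-like class (0.54), 13 of 14 in oligodendrocyte-like cells (0.62) and 10 of 15 in microglia-like cells (0.37). The regulatory medians in these classes ran from -0.07 to 0.12. In all cells of males 78.4% of all genes under 1000 bases and 76.8% of those of 1000 to 1500 bases were higher. These shares rest on the 11643 genes tested in all cells, against 4135 in astrocyte-like and 3532 in endothelial-like cells. The share of all genes higher within each class is not given here, so the class counts have no background of their own. Library make-up and genotype cannot be told apart within the classes of males either. In neuron-like and OPC-like cells only 4 core and 6 regulatory members could be tested, with core medians of 0.29 and 0.34.

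In microglia-like cells 0 of 32 members were called, against 0.479% of 5218 genes in males and 0% in females and in the interaction. Past the unadjusted p were 4 members in males (17.3% of genes), 0 in females (2.86%) and 3 in the interaction (14.3%). By DESeq2 these were 3, 0 and 2. Psmb2 had the smallest p in males, at 25.2, 23.2 and 23.7 CPM in WT and 43.9, 57.0 and 69.9 in THY-Tau22, without overlap (log2 fold change 1.25 ± 0.46, unadjusted p = 0.0112, edgeR adjusted p = 0.165). Psmd8 had the smallest in the interaction (1.55 ± 0.60, unadjusted p = 0.0143, edgeR adjusted p = 0.256), with male values of 20.6, 38.7 and 18.9 in WT and 71.8, 51.0 and 49.5 in THY-Tau22 and female values of 52.9, 53.1 and 53.5 in WT and 80.4, 31.5, 19.8, 42.0 and 27.4 in THY-Tau22. The males did not overlap and the females did. Without WT female replicate 3, 1 member passed the interaction threshold (Psmb2), beside 9.09% of genes.

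In astrocyte-like cells 0 of 31 members were called (0% of 4135 genes in each comparison). Past the unadjusted p were 6 members in males (17.0% of genes), 0 in females (2.85%) and 5 in the interaction (17.1%), and by DESeq2 4, 0 and 5. Psma2, an alpha-ring subunit, was at 109, 99.3 and 86.5 in the WT males and at 202, 168 and 207 in the THY-Tau22 males, without overlap (log2 fold change 1.00 ± 0.33, unadjusted p = 0.00447, edgeR adjusted p = 0.165). Psmd8 was at 38.5, 31.4 and 14.4 in WT males, 31.5, 63.2 and 85.2 in THY-Tau22 males, 63.5, 95.4 and 54.8 in WT females and 36.0, 20.1, 35.4, 71.8 and 63.1 in THY-Tau22 females. Both sexes overlapped, and its interaction was 1.74 ± 0.64 (unadjusted p = 0.00981, edgeR adjusted p = 0.184). Without WT female replicate 3, 4 members passed the interaction threshold (Psma1, Psma2, Psmb2 and Psmd8), beside 14.2% of genes, and without both MB22 libraries 3 did, beside 10.5%.

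In oligodendrocyte-like cells 0 of 31 members were called, against 0.0722% of 4153 genes in males, 0.0241% in females and 0.241% in the interaction. Past the unadjusted p were 5 members in males (17.4% of genes), 0 in females (3.30%) and 6 in the interaction (16.9%), and by DESeq2 4, 0 and 4. Psmd14, the lid subunit that removes ubiquitin chains, had the smallest p in males and in the interaction. It was at 33.0, 47.8 and 38.7 in WT males, 91.8, 128 and 88.0 in THY-Tau22 males, 155, 94.9 and 91.2 in WT females and 67.4, 59.0, 104, 172 and 39.3 in THY-Tau22 females. The males did not overlap (log2 fold change 1.37 ± 0.44, unadjusted p = 0.00343, edgeR adjusted p = 0.132), the females did, and the interaction was 1.80 ± 0.56 (unadjusted p = 0.0028, edgeR adjusted p = 0.118). Without WT female replicate 3, 4 members passed the interaction threshold (Psmb1, Psmb2, Psmc1 and Psmd14), beside 10.7% of genes. Without THY-Tau22 female replicate 4, 2 did (Psmb1 and Psmd14), beside 2.17%, and without both MB22 libraries 3 did, beside 7.89%.

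In endothelial-like cells 0 of 28 members were called (0% of 3532 genes in each comparison). Past the unadjusted p were 4 members in males (14.3% of genes), 0 in females (2.24%) and 1 in the interaction (13.2%), and by DESeq2 2, 0 and 1. Psma5, an alpha-ring subunit, was at 20.3, 57.2 and 13.6 in the WT males and at 104, 71.1 and 91.8 in the THY-Tau22 males, without overlap (log2 fold change 1.64 ± 0.61, unadjusted p = 0.0121, edgeR adjusted p = 0.258), on 2 to 16 UMIs per male library. With the mitochondrial share as a covariate it was -0.22. For Psmb2 the interaction was 1.46 ± 0.65 (unadjusted p = 0.0326, edgeR adjusted p = 0.334), with 52.3, 38.1 and 27.3 in WT males, 71.2, 76.1 and 116 in THY-Tau22 males, 127, 96.0 and 43.4 in WT females and 33.3, 72.9, 52.7, 154 and 52.9 in THY-Tau22 females. The males did not overlap and the females did.

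In neuron-like cells 0 of 10 members were called (0% of 2090 genes) and 0 passed the unadjusted p, against 7.18% of genes in males, 2.78% in females and 5.65% in the interaction. In OPC-like cells 0 of 10 were called (0% of 1238 genes) and 0 passed the unadjusted p, against 9.94%, 3.31% and 7.11%. DESeq2 likewise gave 0 past the unadjusted p in both classes. These classes had 21087 to 185887 and 19049 to 113397 UMIs per library, and which genotype differences could be detected at this depth was not tested.

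Between cell classes some members were called by edgeR, unlike between genotypes, but so were many other genes. Per class 20.7% to 29.2% of all genes were called higher and 24.9% to 36.4% lower. Each class was compared with the mean of the other 5 in the same libraries, with the library as a block, over 5204 genes, of which 30 were members (14 core and 16 regulatory). Neuron-like cells had the lowest core sum (964 ± 245 CPM, SD, n = 14) and oligodendrocyte-like cells the highest (1868 ± 432). The others were at 1298 ± 210 (OPC-like), 1336 ± 241 (microglia-like), 1715 ± 441 (astrocyte-like) and 1715 ± 318 (endothelial-like). The astrocyte-like, endothelial-like and oligodendrocyte-like sums did not differ from each other by more than the spread between libraries. The sums were not tested within libraries. The regulatory sums ran from 1497 ± 308 in neuron-like to 2120 ± 155 in oligodendrocyte-like cells.

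In neuron-like cells 17 members (10 core and 7 regulatory) were lower, as were 36.4% of all genes, and 1 was higher, as were 26.3%. The lowest against the other classes were the active-site subunit Psmb6 (log2 fold change -1.32 ± 0.20, edgeR adjusted p = 9.4e-10), Psmb2 (-0.97 ± 0.24, edgeR adjusted p = 0.000158) and Psmd8 (-0.91 ± 0.28, edgeR adjusted p = 0.00300). Psmb6 had a median of 29.7 CPM there (0 to 131 over 14 libraries), on 51 UMIs in all, against a median of 80.0 to 168 in the other classes. Psma3, an alpha-ring subunit, was the 1 member that was higher (0.54 ± 0.20, edgeR adjusted p = 0.0135), and it fell under the threshold with no filter on low counts and without WT male replicate 4, THY-Tau22 female replicate 4 or WT female replicate 3. The median over the core members was -0.76 and over the regulatory members -0.37, and over all 867 genes under 1500 bases it was -0.76 too. DESeq2 called 10 members lower (29.6% of all genes) and 1 higher (30.5%). By edgeR 11 were lower without THY-Tau22 male replicate 1 (30.9%), WT female replicate 1 (30.4%) or WT female replicate 2 (32%).

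In oligodendrocyte-like cells 9 members were higher (26.5% of all genes were) and 1 was lower (30.8%). Those with the largest rise were Psmb6 (0.88 ± 0.11, edgeR adjusted p = 3.9e-13), the ATPase Psmc2 (0.84 ± 0.12, edgeR adjusted p = 2.2e-10) and the beta-ring subunit Psmb4 (0.78 ± 0.11, edgeR adjusted p = 3.7e-10). Psmb10 was the 1 lower member and had the largest fold of any (-2.04 ± 0.26, edgeR adjusted p = 3.2e-12). The median over the core members was 0.45, against 0.27 over all genes under 1500 bases. DESeq2 called 4 higher (21.5% of all genes) and 2 lower (38.2%).

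The inducible Psmb10 divided the classes unlike the standard subunits. It was higher in microglia-like (1.71 ± 0.15, edgeR adjusted p = 1.6e-22) and endothelial-like (1.37 ± 0.17, edgeR adjusted p = 5.5e-13) and lower in oligodendrocyte-like cells. In neuron-like cells it was lower by edgeR (-0.67 ± 0.31, adjusted p = 0.0440), a call that DESeq2 did not make. Its median over 14 libraries was 84.9 CPM in microglia-like (24.7 to 143), 65.9 in endothelial-like (29.4 to 115), 33.6 in astrocyte-like (16.1 to 71.9) and 7.04 in oligodendrocyte-like cells (0 to 24.4). It was 22.3 in OPC-like (0 to 59.7) and 20.2 in neuron-like cells (0 to 56.1), on 19 and 24 UMIs in all. The microglia-like and oligodendrocyte-like ranges did not overlap, and the OPC-like and neuron-like levels did not differ beyond their spread.

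In microglia-like cells Psmb10 was the 1 higher member (29.2% of all genes were higher), and 5 were lower (36.2%). Psmb5 was lower there by -0.70 ± 0.17 (edgeR adjusted p = 0.000105), and the ATPases Psmc5 (-0.64 ± 0.11, edgeR adjusted p = 4.8e-08) and Psmc4 (-0.53 ± 0.15, edgeR adjusted p = 0.000782) followed. Psmb5 had a median of 29.4 CPM in microglia-like cells (6.17 to 45.7) and of 65.4 in astrocyte-like cells (24.2 to 136), which overlapped. In endothelial-like cells 3 members were higher (27.7%) and 0 lower (30.7%), the others being the alpha-ring subunits Psma7 (0.70 ± 0.07, edgeR adjusted p = 3.1e-18) and Psma6 (0.58 ± 0.12, edgeR adjusted p = 5.1e-06). In microglia-like cells 2 were lower without WT male replicate 4 (33.1% of all genes) and 3 without WT female replicate 3 (33%). DESeq2 called 1 higher (28.6% of all genes) and 6 lower (38.5%) there, and 3 (25.4%) and 0 (34.1%) in endothelial-like cells.

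In astrocyte-like cells 4 members were higher (26.8% of all genes) and 0 lower (27.2%). Psmb5 led (0.72 ± 0.16, edgeR adjusted p = 2.5e-05), followed by Psmd8 (0.70 ± 0.17, edgeR adjusted p = 0.000113) and Psmd11 (0.56 ± 0.11, edgeR adjusted p = 2.0e-06). In OPC-like cells 0 members were higher (20.7%) and 2 were lower (24.9%), namely Psmb4 (-0.62 ± 0.20, edgeR adjusted p = 0.00513) and the lid subunit Psmd12 (-0.55 ± 0.17, edgeR adjusted p = 0.00477). In astrocyte-like cells 7 were higher without THY-Tau22 male replicate 1 (27.8% of all genes) or WT female replicate 1 (27.6%). DESeq2 called 4 higher (26.6% of all genes) and 0 lower (29.5%) there. In OPC-like cells it called 1 higher (Psmd6, 24.2%) and 0 lower (18.5%). By edgeR the members' share of calls was near or below that of all genes in each class and direction but the lower calls of neuron-like cells.

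**Figure D4:**
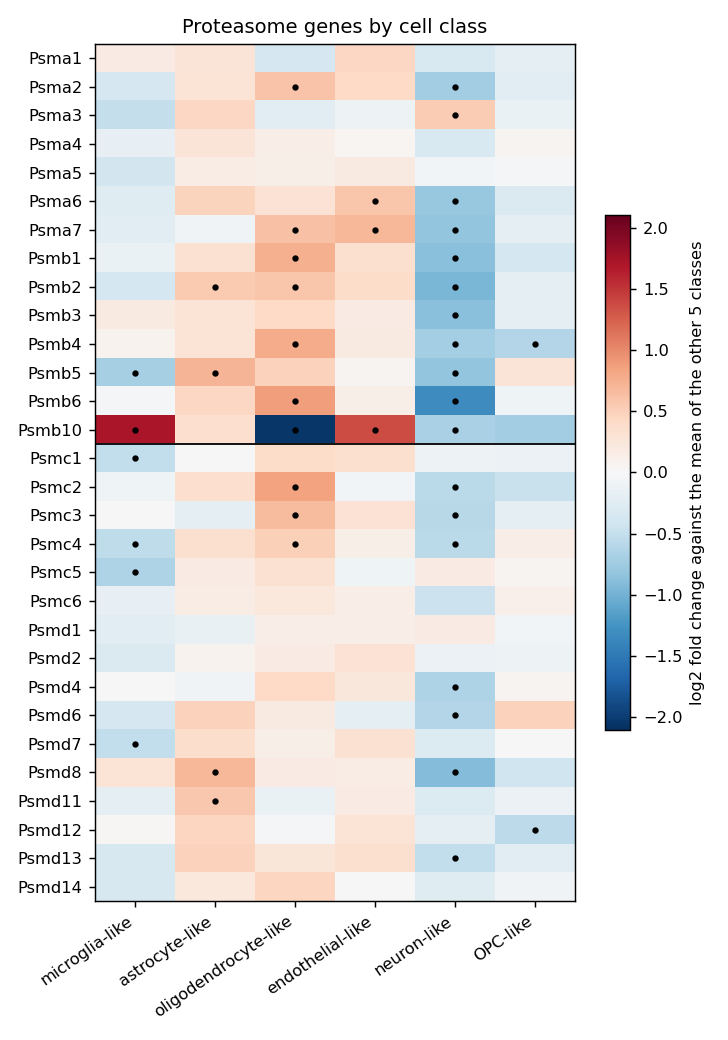
Log2 fold change of the 30 tested genes in each class against the mean of the other 5 (red higher, blue lower), core genes above the line and regulatory genes below. Dots mark genes called by edgeR. Neuron-like cells hold 17 lower calls, oligodendrocyte-like cells 9 higher calls, and Psmb10 runs from -2.04 to 1.71.

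**Figure D5:**
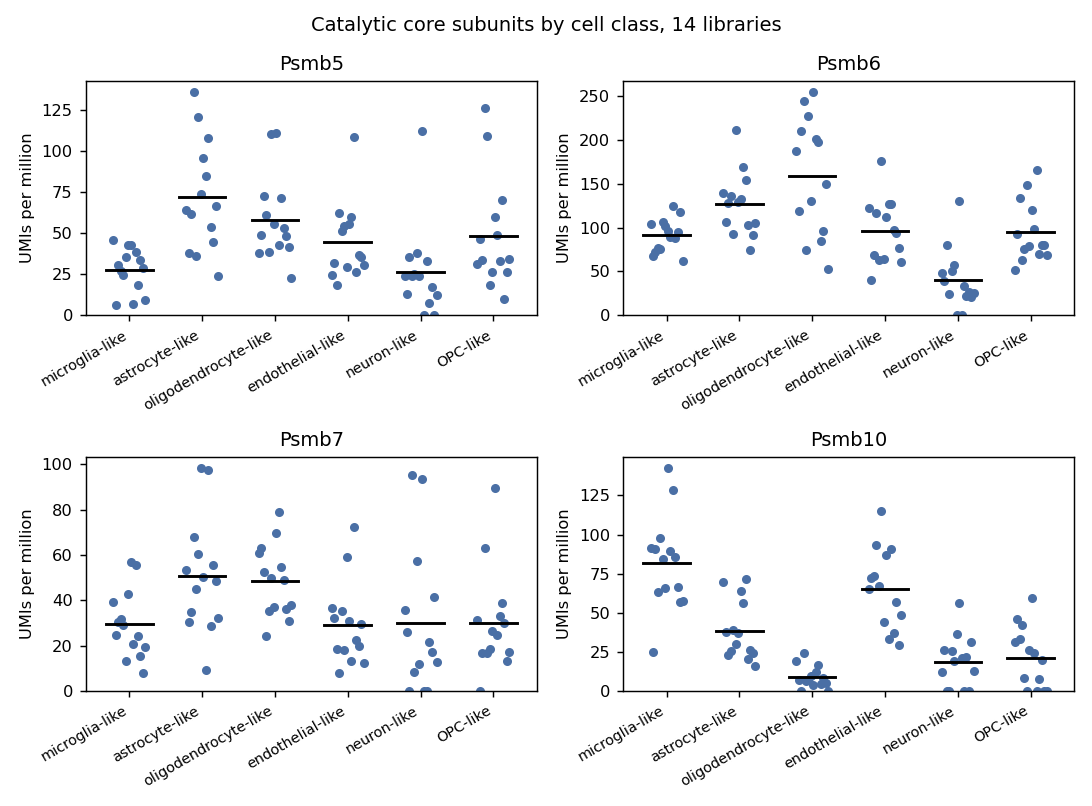
CPM of Psmb5, Psmb6, Psmb7 and the inducible Psmb10 by class, each point a library (14 per class) and each bar the mean. Psmb6 is highest in oligodendrocyte-like cells, where Psmb10 is lowest, and Psmb10 is highest in microglia-like cells. Psmb7 was not tested between classes.

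The other genes of the pathway were taken from a list of subunits under other names, inducible subunits, activators, assembly chaperones, deubiquitinases, ubiquitin genes, shuttle factors and transcription factors. In all cells 0 of 40 tested were called in either sex or in the interaction by edgeR. At the unadjusted p, 5 were higher and 2 lower in males, 0 passed in females, and 3 were positive and 1 negative in the interaction, against 15.4%, 1.74% and 12.7% of all genes. The inducible subunit Psmb9 had the smallest p in males (8.28 ± 5.09 CPM in WT against 21.99 ± 5.53 in THY-Tau22, n = 3 each, log2 fold change 1.26 ± 0.41, unadjusted p = 0.00595, edgeR adjusted p = 0.234).

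Between classes 21 of these genes were tested. The inducible subunit Psmb8 and the interferon-induced activator Psme1 were, like Psmb10, higher in microglia-like and endothelial-like cells and lower in oligodendrocyte-like cells. In astrocyte-like cells, where Psmb10 was not called (0.36 ± 0.19), both were lower, Psmb8 by -1.50 ± 0.31 and Psme1 by -0.54 ± 0.16. Psmb8 was higher in microglia-like (3.42 ± 0.14, edgeR adjusted p = 5.1e-57) and endothelial-like cells (2.55 ± 0.17, edgeR adjusted p = 3.5e-32) and lower in oligodendrocyte-like cells (-2.28 ± 0.33, edgeR adjusted p = 3.3e-10). Psme1 was higher in microglia-like cells by 2.15 ± 0.10 (edgeR adjusted p = 1.8e-50) and lower in oligodendrocyte-like cells by -1.80 ± 0.18 (edgeR adjusted p = 1.4e-18). Of the 21, 8 were higher and 1 lower in microglia-like cells, 7 and 1 for the endothelial-like class, 6 and 10 in neuron-like cells, 3 and 6 in oligodendrocyte-like cells, 2 and 4 in astrocyte-like cells and 0 and 8 in OPC-like cells. Of all genes, in the same order of classes, 29.2%, 27.7%, 26.3%, 26.5%, 26.8% and 20.7% were higher. The shares that were lower were 36.2%, 30.7%, 36.4%, 30.8%, 27.2% and 24.9%. Several of these counts were near the share of their class. The 10 lower in neuron-like, the 8 lower in OPC-like and the 8 higher in microglia-like cells lay above it. The 1 lower in microglia-like and in endothelial-like cells and the 0 higher in OPC-like cells lay below it. Nfe2l1, the factor that drives proteasome genes when proteasome activity falls, was higher in endothelial-like (1.47 ± 0.07, edgeR adjusted p = 1.1e-45) and neuron-like cells (0.80 ± 0.10, edgeR adjusted p = 3.9e-13) and lower in astrocyte-like (-0.93 ± 0.10, edgeR adjusted p = 1.4e-16) and oligodendrocyte-like cells (-0.68 ± 0.09, edgeR adjusted p = 4.2e-11). Nfe2l2 was divided otherwise. It was higher in microglia-like (2.98 ± 0.08, edgeR adjusted p = 1.1e-84), astrocyte-like (1.14 ± 0.10, edgeR adjusted p = 7.7e-21) and endothelial-like cells (0.92 ± 0.11, edgeR adjusted p = 3.1e-14). It was lower in neuron-like (-3.23 ± 0.22, edgeR adjusted p = 5.8e-31) and OPC-like cells (-1.89 ± 0.21, edgeR adjusted p = 1.8e-15).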

How the data were processed

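The deposited tables hold UMI counts per gene and barcode for 16 Drop-seq libraries, made by the authors with the standard Drop-seq pipeline against mm10, as the methods and, per the labels, the build field state. The aligner, software versions and annotation are not given in the sources used here. Members and lists were chosen with earlier results of these data known. Barcodes with 200 to 7000 genes were kept, the study's stated limits on gene number. The study also removed cells above 5% mitochondrial content. That limit was applied here only as an alternative, without mt-Rnr1 and mt-Rnr2. Cells were clustered without Psm and mitochondrial genes (2500 variable genes, 19 principal components, 20 neighbours, Leiden resolution 0.5) and named from marker lists. Scrublet marked 1473 barcodes (5.16%) as doublets, which were kept and left out in an alternative. Counts were summed per library and class (at least 10 cells) and fitted with edgeR 4.0.16 (TMM, filterByExpr, quasi-likelihood test), with 4 group means or with classes and a library block. The study fitted single cells with Poisson regression, so sums over libraries replaced it here. DESeq2 1.42.0 was the alternative. P-values of the genotype comparisons rest on the spread between libraries of a group. Those of the class comparisons rest on the spread left after the library block. Members named were Psmb5, Psmb6, Psmb7 and Psmb10, up to 3 of smallest unadjusted p under 0.05 per comparison in all cells, 1 per class, up to 3 called per class and direction and the 3 highest per group, and the others are given by counts. Psmc1 and Psmb1 in all cells, Psmb11, Psma8, Psmc3ip and Psmd11 were named after their values were seen. Tested on simulated data for the male comparison over 11643 genes, the fit called 90% of genes changed by a log2 of 2 and 28% of those changed by 1.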

Additional observations from a re-analysis of the deposited data

Results flagged for a closer look

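THY-Tau22 female replicate 4 lay apart from the other 4 THY-Tau22 females in 5 of the 57 values checked with Dixon's test. Chance flags about 1 in 20 single values. The values checked overlap, because members are parts of the sums and the sums are parts of the ratios. The count of 5 therefore cannot be compared with that rate. In all cells it had 90.2 CPM of Psma1, with 60.2 in the nearest library, and 126.6 of Psma6, with 83.4 in the nearest. Its summed core level was 2026 CPM in astrocyte-like cells, with 1402 in the nearest library, and 2411 in endothelial-like cells, with 1702 in the nearest. Its ratio of core to regulatory UMIs in endothelial-like cells was 1.05, with 0.865 in the nearest library. It also had the highest share of UMIs in transcripts under 1000 bases (13.3%) among the THY-Tau22 females, and the part of that share in these values was not tested.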

How the results depend on the processing

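In males the core median in all cells (0.56) lay between 0.48 and 0.63 when each of the 14 libraries was left out and between 0.41 and 0.57 under the other settings, and with the mitochondrial share as a covariate, an alternative added after the data were seen, it was -0.10. The same covariate moved the interaction core median from 0.67 to -0.084 and turned Psmb2 in males in all cells to -0.29 and Psma5 in endothelial-like cells to -0.22. Leaving out the cells of unnamed clusters, also added later, gave 0.57 in males. Leaving out both MB22 libraries, added later too, gave 3 interaction calls in all cells, 3 in astrocyte-like and 3 in oligodendrocyte-like cells and an interaction regulatory median of 0.087. The core members past the unadjusted p numbered 2, not 8, without THY-Tau22 male replicate 3 or without WT male replicate 4. The share of all genes past it in those fits is not given beside this count. With the 2 groups of a sex fitted alone, members called in males were 4 in all cells, 1 in microglia-like, 1 in astrocyte-like, 4 in oligodendrocyte-like and 1 in endothelial-like cells, beside 6.08%, 8.04%, 12.2%, 8.95% and 4.87% of genes, and with no filter on low counts 1 in all cells (Psmb2), beside 1.03% of genes. Leaving out single libraries gave 0 to 4 interaction calls in all cells, 0 to 1 in microglia-like, 0 to 4 in astrocyte-like and 0 to 4 in oligodendrocyte-like cells, the highest each without WT female replicate 3. It moved the regulatory median to 0.030 to 0.17 in males, -0.047 to 0.10 in females and -0.13 to 0.13 in the interaction, and the core median to -0.36 to 0.06 in females and 0.40 to 0.93 in the interaction. Leaving out libraries gave 2 to 7 lower calls in microglia-like (33% to 39% of all genes) and 3 to 7 higher in astrocyte-like cells (26.1% to 27.8%). It gave 0 to 1 higher (24.8% to 29.3%) and 11 to 18 lower (30.4% to 38.4%) in neuron-like cells. In OPC-like cells it gave 0 to 1 higher (19.4% to 22.9%) and 0 to 3 lower (21.2% to 26.5%). With no filter, 38 members and 27801 genes were tested, against 30 and 5204 with the filter. The shares of all genes fell with the added genes of low counts, for higher genes in oligodendrocyte-like cells from 26.5% to 12%. The unfiltered shares and member counts are therefore not like for like. There were 3 higher (17.9% of all genes) and 2 lower (11.9%) in microglia-like and 7 higher in astrocyte-like cells (16.1%). Higher members numbered 13 in oligodendrocyte-like (12%), 5 in endothelial-like (12.7%) and 0 in neuron-like cells (15.6%), and 4 were lower in OPC-like cells (7.02%). DESeq2 gave 4 higher (21.5% of all genes) and 2 lower (38.2%) in oligodendrocyte-like and 10 lower in neuron-like cells (29.6%). In OPC-like cells it gave 1 higher (24.2%) and 0 lower (18.5%). With WT male replicate 3 added there were 2 lower in microglia-like cells (35.1% of all genes). In OPC-like cells there were then 1 higher (22.4%) and 0 lower (22.7%). A limit of 5% mitochondrial UMIs, counted without mt-Rnr1 and mt-Rnr2, kept 28439 of the 28530 barcodes. Over all mitochondrial genes the limit would have kept 1242 and was not used. The limit used and a Leiden resolution of 1 each gave 11 lower in neuron-like cells (32.1% and 31.2% of all genes). In OPC-like cells each gave 1 higher (21.8% and 22.2%) and 1 lower (22.2% and 21.5%), and doublet removal gave 1 higher (22%). In neuron-like cells the 1 higher call was lost without WT male replicate 4, THY-Tau22 female replicate 4 or WT female replicate 3. The causes were not tested. No paired analysis was possible because the groups compared share fewer than 2 numbers: of the S numbers in the titles, the male groups share 0 and the female groups 1 (S8), and the repeated animal number links libraries of different sex. Low UMI counts limit the neuron-like and OPC-like values.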
